A study of Mus musculus with 12 samples.

Results

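The 32 genes examined here encode standard subunits of the proteasome and 1 assembly chaperone: Psma1 to Psma7 of the alpha rings, Psmb1 to Psmb7 of the beta rings, the ATPases Psmc1 to Psmc6, and Psmd1 to Psmd8 and Psmd11 to Psmd14 of the regulatory cap. The chaperone is Psmd5, which is counted here with the cap. They were taken by name by a rule that uses names and no measured value, but the list was chosen with earlier results of these data known. All 32 were found among the 43432 genes of the deposited tables, and all 32 were among the 12705 genes with enough counts to be tested.

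The proteasome is the protease that degrades proteins tagged with ubiquitin. Its barrel-shaped 20S core is a stack of rings, with outer alpha rings that gate the entrance and inner beta rings in which Psmb5, Psmb6 and Psmb7 carry the active sites. The 19S cap has a base of ATPases and scaffold subunits, which unfolds substrates, and a lid, which removes the ubiquitin chain. When proteasome activity falls, the transcription factor NRF1 (gene Nfe2l1) is known to raise the subunit genes together through antioxidant response elements. In activated immune cells, the immune subunits Psmb8, Psmb9 and Psmb10 can take the places of the active beta subunits.

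RNA was sequenced from BV2 cells, an immortalized mouse microglial line, in 6 groups of 2 libraries. The groups were untreated cells, cells given LPS (the bacterial endotoxin that activates TLR4) at 100 ng/mL, and cells given the same LPS 1 h after 6-gingerol at 10 or 30 µM or 6-shogaol at 10 or 30 µM. 6-Gingerol and 6-shogaol are phenols of ginger; 6-shogaol has an α,β-unsaturated ketone in place of the β-hydroxy ketone of 6-gingerol. Serum was withdrawn at least 4 h before the compounds; the labels give no vehicle and no time from LPS to harvest. All groups come from 1 cell line, and no label says that replicates were separate cultures, so p-values measure only the spread between these libraries.

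Libraries held 16534960 to 21179867 expected counts (estimated reads per gene), of which the 32 genes took 0.615% to 0.725%. Levels are given as CPM, counts relative to a TMM-scaled library total, and differences as log2 fold changes from edgeR's quasi-likelihood F test. The standard error (SE) was derived as the absolute log2 fold change divided by the square root of F, and the 95% intervals from that SE. A gene was called higher or lower at a Benjamini-Hochberg adjusted p under 0.05 over all 12705 genes. With 2 libraries a group, the 95% interval of a proteasome gene reached a median of 0.26 on the log2 scale to each side of its fold change. Of 12 microglial markers, 9 had a mean of at least 1 CPM (summed level 1319 to 1622 CPM per library; Cx3cr1, P2ry12 and C1qa were below it), against 0 of 5 astrocyte, 0 of 5 neuronal and 0 of 7 fibroblast and endothelial markers.

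In LPS-treated cells the subunit genes were expressed at very unequal levels. On the TPM scale, which corrects for gene length, Psmb6 was the highest (1271 and 1192 TPM in the 2 LPS libraries), Psma7 came next (676 and 651 TPM) and Psmd1 was the lowest (32.7 and 33.5 TPM). The median TPM with LPS was 347 for the 7 beta-ring genes, 264 for the 7 alpha-ring genes, 118 for the 6 ATPases and 86.4 for the 8 lid genes. Psmd3 (33.0 and 36.9 TPM) overlapped Psmd1 at the bottom of the order, while at the top Psmb6 and Psma7 did not overlap.

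With 30 µM 6-shogaol the proteasome genes did not move as one group. Of the 32, 10 rose against LPS alone (31.2%, where 12.6% of all 12705 genes rose), 2 fell (6.25%, where 12.8% of all genes fell) and 20 did not pass the test (25.4% of all genes changed in either direction). The extremes were Psmd1, a large scaffold subunit of the cap, which rose to 2.33-fold, and Psmb6, the caspase-like active subunit of the core, which fell to 0.552-fold. Of the 18 cap genes (the assembly chaperone Psmd5 included) 7 rose (38.9%) and 1 fell, with a median log2 fold change of 0.22. Of the 14 core genes 3 rose (21.4%) and 1 fell, with a median of -0.06. The cap and core medians lay closer together against 30 µM 6-gingerol (0.225 and 0.134) and against 10 µM 6-shogaol (0.263 and 0.181). For the dose step of 6-shogaol minus that of 6-gingerol they were 0.388 and 0.401. These are bulk levels, in which fewer cells of a type and less RNA per cell cannot be told apart. Against LPS alone, the median over all 32 genes was 0.08 and over all genes tested -0.002. For comparison, 3 of 10 housekeeping genes listed as controls also rose (Ppia, Actb and Hprt).

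**Figure D1:**
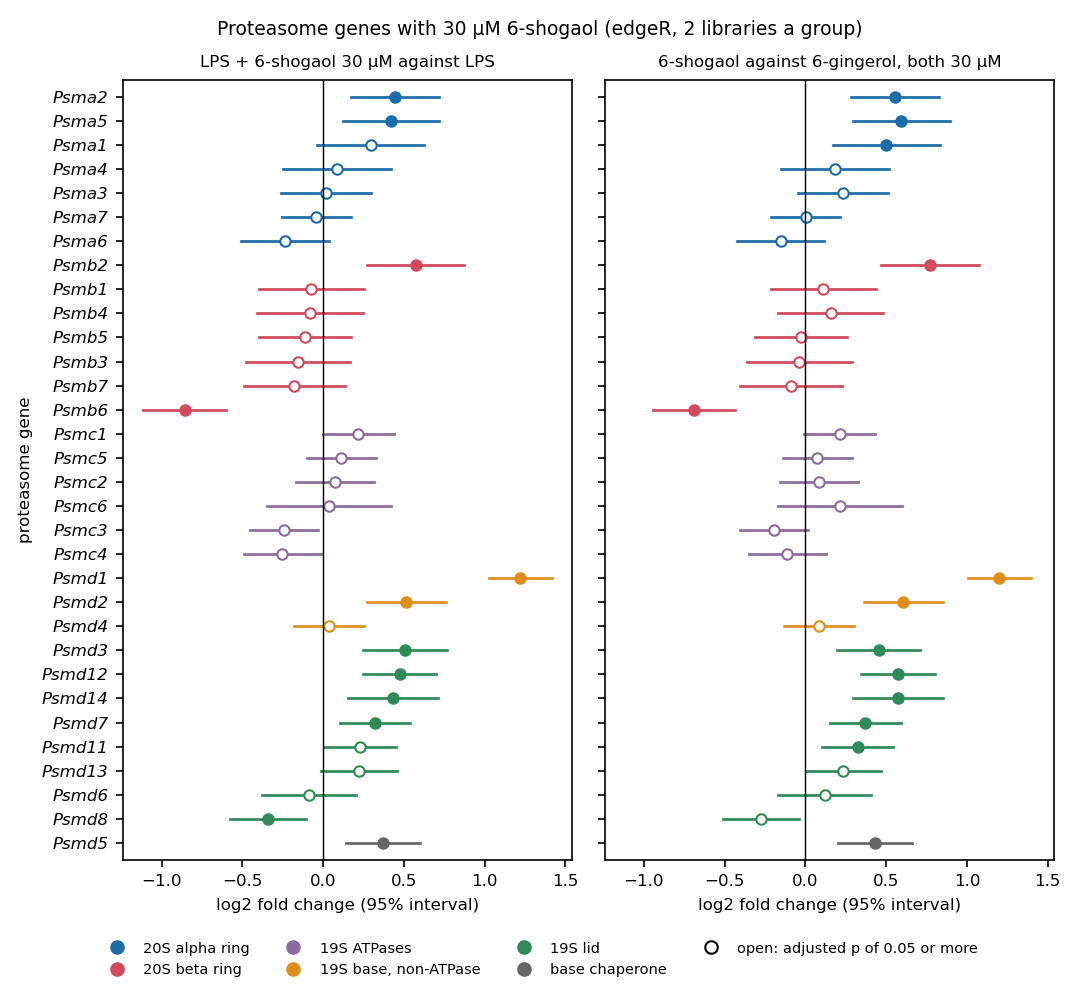
Log2 fold change (x axis, with 95% interval) of each of the 32 proteasome genes (y axis, coloured by class) for 30 µM 6-shogaol with LPS against LPS alone (left) and against 30 µM 6-gingerol with LPS (right), 2 libraries a group; filled points passed the adjusted p of 0.05. Psmd1 lies far to the right in both panels (1.22 and 1.20) and Psmb6 to the left (-0.86 and -0.69).

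These 12 calls were not equally firm. Psmd1 and Psmb6 were called in all 15 alternative settings, Psmd2 and Psmd12 in 14, and the other 8 in 10 to 13. With any 1 of the 4 libraries compared left out, fewer than 12 genes were called. Such a fit leaves 1 library in a group, with fewer residual degrees of freedom for every gene. The share of all genes called in these fits is not given here. In them the log2 fold change ran from 1.19 to 1.25 for Psmd1 and from -0.93 to -0.78 for Psmb6.

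The sequences just upstream of the genes with the extreme responses are shown with those of Psmd12 (a lid subunit that rose) and Psmc6 (an ATPase that did not pass the test), the other genes highest in this comparison that hold the antioxidant response element core TGACNNNGC. They are from RefSeq (GRCm38.p6), start 250 bases before the annotated transcript start, are written 5′ to 3′ and stop where GENCODE annotates a UTR; capitals mark the element.
Psmd1, chr1:86064369-86064618, plus strand: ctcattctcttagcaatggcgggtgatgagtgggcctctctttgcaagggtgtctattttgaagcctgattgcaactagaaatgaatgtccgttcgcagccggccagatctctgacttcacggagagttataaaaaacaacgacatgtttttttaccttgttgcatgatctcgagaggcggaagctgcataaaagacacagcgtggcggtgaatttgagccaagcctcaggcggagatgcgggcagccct
Psmb6, chr11:70525107-70525356, plus strand: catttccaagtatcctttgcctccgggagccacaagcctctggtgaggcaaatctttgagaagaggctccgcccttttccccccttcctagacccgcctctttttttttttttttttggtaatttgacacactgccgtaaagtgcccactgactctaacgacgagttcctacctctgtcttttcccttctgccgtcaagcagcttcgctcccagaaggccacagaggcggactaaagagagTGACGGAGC
Psmd12, chr11:107479278-107479483, plus strand: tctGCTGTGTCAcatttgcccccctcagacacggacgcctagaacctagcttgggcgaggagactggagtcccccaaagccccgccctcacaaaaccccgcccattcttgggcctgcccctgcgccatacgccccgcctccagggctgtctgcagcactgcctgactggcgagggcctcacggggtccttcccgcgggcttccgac
Psmc6, chr14:45329574-45329787, plus strand: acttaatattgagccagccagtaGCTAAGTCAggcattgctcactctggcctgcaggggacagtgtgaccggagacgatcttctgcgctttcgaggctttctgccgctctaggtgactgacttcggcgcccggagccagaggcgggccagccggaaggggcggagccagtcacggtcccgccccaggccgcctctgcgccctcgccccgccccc
The Psmd1 window holds none of the motifs searched, and most of it lies in the first exon of non-coding Psmd1 transcripts of GENCODE M21. In Psmb6 the element (TGACGGAGC) ends at the last base before the start, on the plus strand. In Psmd12 (TGACACAGC) and Psmc6 (TGACTTAGC) it lies on the minus strand, 247 to 239 and 227 to 219 bases before the start. RefSeq promoter entries matched 26 of the 32 genes. TGACNNNGC on either strand was found in 4 of them (also in Psmb5), against 10.2% of all 32851 promoters of the same length. CCAAT was found in 10, against 33.8% of all promoters, and the heat shock element in 0, against 0.5%. The 4 genes with TGACNNNGC differed in direction: Psmd12 rose, Psmb6 fell, and Psmb5 (-0.11) and Psmc6 (0.04) did not pass the test.

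In the beta rings, 1 of 7 genes rose and 1 fell with 30 µM 6-shogaol. Psmb6 stood at 654 and 556 CPM in untreated cells, 736 and 665 under LPS alone, 738 and 630.4 after adding 6-gingerol at 10 µM, 602 and 643 at 30 µM of it, 514 and 489.9 after adding 6-shogaol at 10 µM, and 403 and 369.6 at 30 µM of it. Both 30 µM 6-shogaol libraries were below all the other 10, and the 10 µM 6-shogaol libraries came next. The fold change against LPS was -0.86 on the log2 scale (SE 0.12, 95% interval -1.11 to -0.60, adjusted p = 0.00011). Its difference in mean TPM was the largest of the 32 genes, from 1232 ± 55.7 TPM with LPS to 735 ± 44.4 TPM (SD, n = 2).

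The other active subunits did not pass the test. Psmb7, with trypsin-like activity, was at 399 and 277, 367 and 328, 379.7 and 316, 308 and 345, 292 and 281, and 299 and 315 CPM in the same order of groups, and its fold change was -0.18 (SE 0.15, adjusted p = 0.41). Psmb5, with chymotrypsin-like activity and the main target of proteasome inhibitor drugs, was at 270.0 and 253, 271 and 241, 311 and 226, 248 and 234, 252 and 229, and 253 and 220.2 CPM, a fold change of -0.11 (SE 0.13, adjusted p = 0.58). In both genes the 30 µM 6-shogaol libraries overlapped the other groups.

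Psmb2, a beta subunit without an active site, rose. It was at 93.6 and 72.5, 84.0 and 86.5, 78.8 and 85.0, 63.8 and 84.7, 77.8 and 89.2, and 118 and 135 CPM, with both 30 µM 6-shogaol libraries above all others. Its log2 fold change was 0.57 (SE 0.14, adjusted p = 0.0077), but the call was lost without LPS replicate 1 (adjusted p = 0.063) or without 30 µM 6-shogaol replicate 2 (adjusted p = 0.076). Psmb1, Psmb3 and Psmb4, also without active sites, gave -0.07, -0.15 and -0.08.

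**Figure D2:**
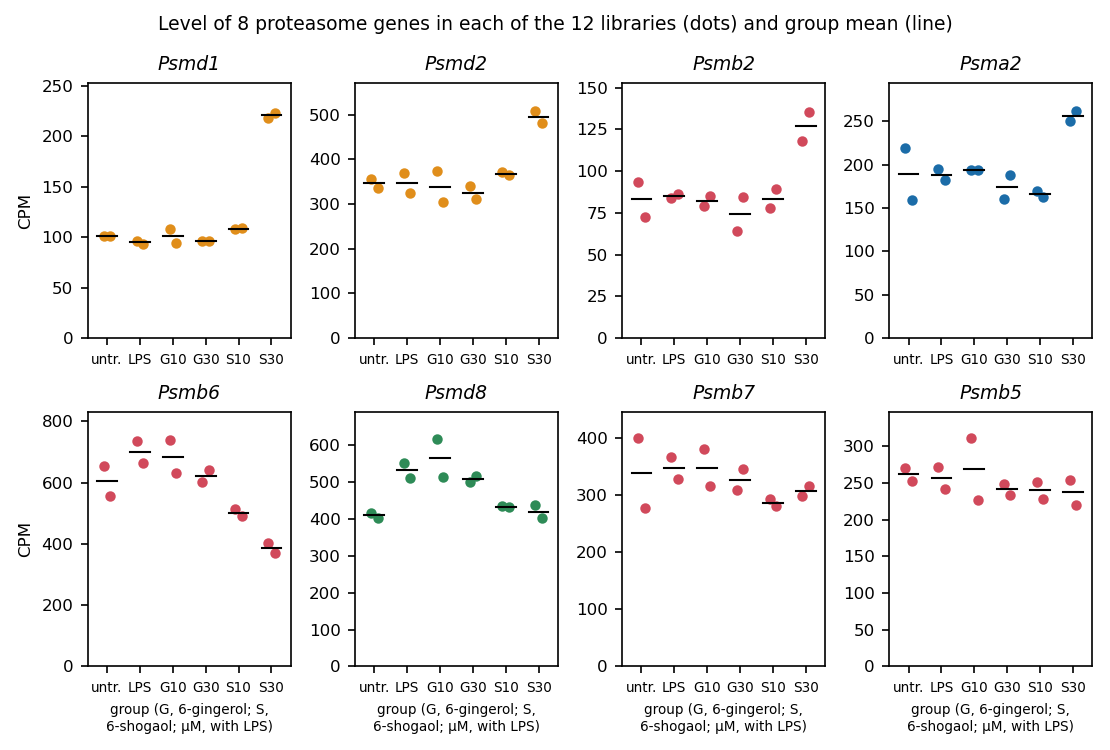
CPM (y axis, from 0) of 8 proteasome genes in each library (dots) with the mean of the 2 replicates (line), by group (x axis; G, 6-gingerol and S, 6-shogaol, at 10 or 30 µM with LPS). Psmd1, Psmd2, Psmb2 and Psma2 are highest in both 30 µM 6-shogaol libraries, Psmb6 is lowest there, and Psmb7 and Psmb5 overlap the other groups.

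In the alpha rings, which form the gate of the core, 2 of 7 genes rose and 0 fell. Psma2 was at 219 and 159.6, 195 and 182, 194 and 194, 160.3 and 188, 169.8 and 163, and 250.1 and 262 CPM, highest in the 2 libraries with 30 µM 6-shogaol, which gave 0.45 on the log2 scale (SE 0.13, adjusted p = 0.019). Psma5 changed by 0.42 (SE 0.14, adjusted p = 0.039). Each of these calls was lost when any 1 of the 4 libraries compared was left out, and that of Psma2 also with the authors' normalized values. Psma6 had the lowest value of the class, -0.24 (SE 0.13, adjusted p = 0.19), with 318 and 251, 340.1 and 309.6, 381 and 328, 283 and 329.8, 278 and 274, and 263 and 289 CPM in the usual order of groups, and its 30 µM 6-shogaol libraries overlapped the untreated ones. Psma1 (0.29), Psma3 (0.02), Psma4 (0.09) and Psma7 (-0.04) did not pass the test.

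None of the 6 ATPases, the ring that unfolds substrates, passed the test with edgeR, DESeq2 or limma-voom. An unadjusted p under 0.05 was found for 2 (Psmc3 and Psmc4), where 36.7% of all genes had one. Their log2 fold changes ran from -0.25 to 0.22. Psmc4, the lowest, was at 136 and 111, 116 and 106, 119.7 and 103, 98.9 and 103, 100.3 and 92.6, and 95.4 and 91.1 CPM, where the 30 µM 6-shogaol libraries lay below both LPS libraries but beside the 10 µM ones (adjusted p = 0.12). Psmc1, the highest, was at 211 and 177, 189.7 and 172, 190.0 and 179, 180.3 and 182, 192 and 175, and 207 and 214 CPM, a fold change of 0.22 (SE 0.10, adjusted p = 0.14), and overlapped the untreated libraries.

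Of the base subunits that are not ATPases, Psmd1 and Psmd2, the large scaffolds that dock ubiquitin receptors and shuttles, rose, and the ubiquitin receptor Psmd4 did not pass the test. Psmd1 was at 101 and 101 CPM in untreated cells, 96.6 and 92.8 under LPS alone, 108 and 94.0 after adding 6-gingerol at 10 µM, 96.2 and 96.0 at 30 µM of it, 108 and 109 after adding 6-shogaol at 10 µM, and 218 and 223 at 30 µM of it. The 10 libraries outside 30 µM 6-shogaol lay between 92.8 and 109 CPM, so the rise was larger than any spread between replicates. The log2 fold change was 1.22 (SE 0.09, 95% interval 1.03 to 1.41, adjusted p = 2.9e-07). Psmd2 was at 355 and 336, 368 and 325, 373 and 303, 339 and 311, 371 and 364, and 508 and 482 CPM in the same order, a fold change of 0.52 (SE 0.12, adjusted p = 0.0042); without LPS replicate 2 its adjusted p was 0.069. Psmd4 was at 206 and 175, 169 and 167, 174 and 157, 159 and 165, 157 and 143, and 177 and 167 CPM, and its fold change of 0.03 (SE 0.10, adjusted p = 0.85) became -0.01 without 30 µM 6-shogaol replicate 1.

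In the lid, 4 of 8 genes rose and 1 fell. Psmd3, a structural subunit, had the highest fold change, 0.51 (SE 0.12, adjusted p = 0.0066), and was at 62.4 and 81.1, 65.8 and 68.9, 61.6 and 61.0, 75.6 and 64.3, 81.1 and 77.3, and 99.8 and 91.7 CPM. Its 30 µM 6-shogaol libraries were above all others. Psmd12, another structural subunit, changed by 0.47 (SE 0.11, adjusted p = 0.0045), Psmd14, the enzyme that cuts off the ubiquitin chain, by 0.43 (SE 0.13, adjusted p = 0.025), and its partner Psmd7 by 0.32 (SE 0.10, adjusted p = 0.032). The Psmd3 call was lost without replicate 1 of LPS or of 30 µM 6-shogaol, and that of Psmd12 without LPS replicate 2. The Psmd14 call was lost without either LPS library or without 30 µM 6-shogaol replicate 2, and that of Psmd7 without any 1 of the 4 libraries and with the authors' normalized values. Psmd6 (-0.09), Psmd11 (0.23) and Psmd13 (0.22) did not pass the test.

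Psmd8, a lid subunit that joins late in assembly, moved the other way. It was at 416 and 402 CPM in untreated cells, 551 and 512 under LPS alone, 617 and 513 after adding 6-gingerol at 10 µM, 500.0 and 515 at 30 µM of it, 435 and 431 after adding 6-shogaol at 10 µM, and 438 and 401 at 30 µM of it. The 30 µM 6-shogaol libraries were below both LPS libraries and overlapped the untreated and 10 µM 6-shogaol ones. The log2 fold change against LPS was -0.34 (SE 0.11, adjusted p = 0.034), and the call was lost without any 1 of the 4 libraries compared and on the TPM scale (-0.24, adjusted p = 0.12).

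Psmd5, a chaperone of base assembly that leaves before the proteasome is complete, rose against LPS by a log2 value of 0.37 (SE 0.11, adjusted p = 0.020). It was at 77.7 and 62.4, 88.2 and 89.5, 90.3 and 89.6, 80.3 and 90.0, 85.3 and 89.4, and 111 and 119 CPM, lowest in the untreated libraries and highest with 30 µM 6-shogaol. The call was lost without either LPS library, without 30 µM 6-shogaol replicate 2 and with the authors' normalized values.

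At 10 µM, 6-shogaol gave 0 calls among the 32 genes with edgeR (0.638% of all genes were called), 1 with DESeq2 (Psmb6) and 0 with limma-voom. An unadjusted p under 0.05 was found for 5 of the 32 genes, where 10.8% of all genes had one. Psmb6 had the smallest adjusted p, 0.11, with a log2 fold change of -0.48 (SE 0.12, 95% interval -0.74 to -0.23). Psmd1 gave 0.20 (95% interval 0.00 to 0.39, adjusted p = 0.45). Of the 32 fold changes 26 were negative, with a median of -0.16, while the median of all genes was -0.001. When only the 4 libraries of the groups compared were fitted, 6 genes were called, all lower. The 0.638% belongs to the fit of all 12 libraries, and the share of all genes in the 4-library fit is not given here.

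6-Gingerol gave 0 calls among the 32 genes at 10 µM and 0 at 30 µM, with edgeR, DESeq2 and limma-voom alike. No proteasome gene had an unadjusted p under 0.05 at either dose, where 1.91% of all genes did at 10 µM and 1.49% at 30 µM. Here 0% of all genes were called at each dose. The medians of the 32 fold changes were 0.02 at 10 µM and -0.09 at 30 µM, where 9 and 28 of them were negative (medians of all genes 0.005 and 0.001). Each 95% interval is for 1 gene at a time, so the intervals do not bound the changes of all 32 genes jointly. Across the 32 genes they ran from -0.40 (Psmd3) to 0.46 (Psmc6) at 10 µM and from -0.56 (Psmb4) to 0.31 (Psmd3) at 30 µM. The smallest of the 10 rises called with 30 µM 6-shogaol was estimated at 0.32, close to the highest of these upper bounds at 30 µM. For Psmd1 the upper bounds were 0.28 at 10 µM and 0.21 at 30 µM.

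**Figure D3:**
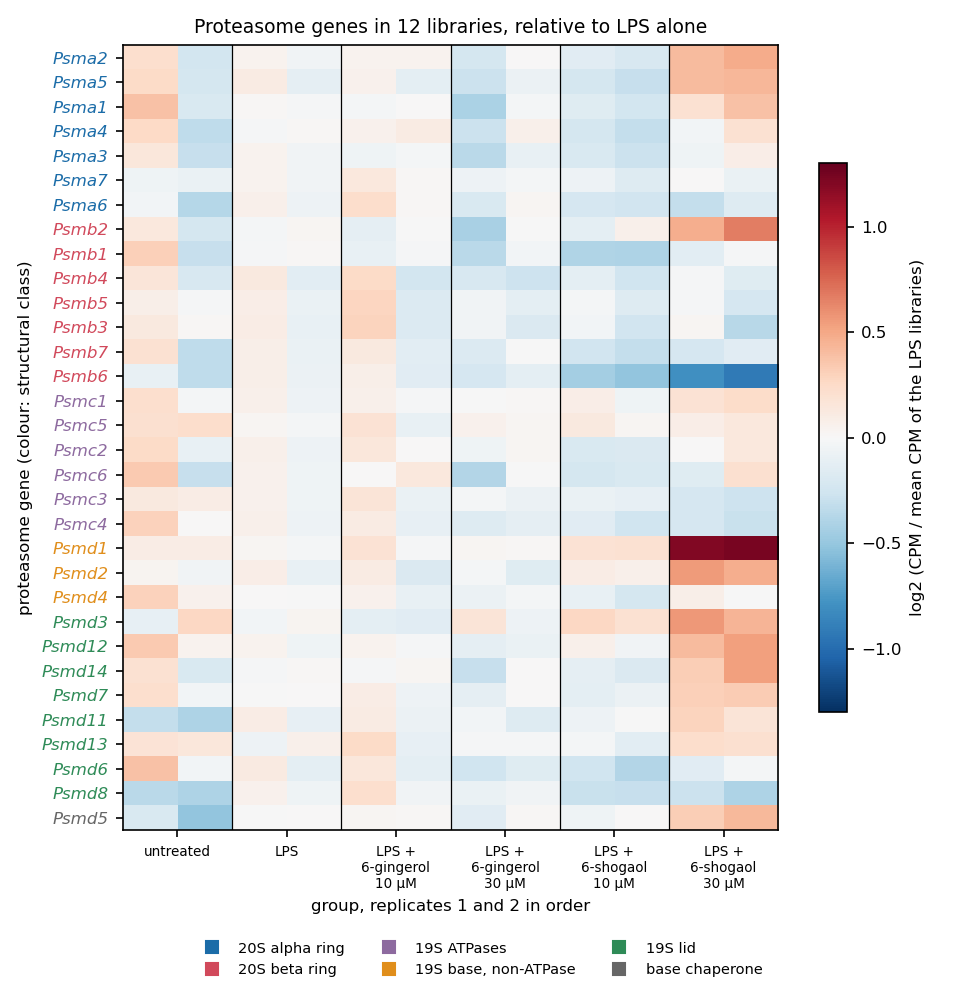
Log2 ratio of CPM in each library to the mean CPM of the LPS libraries (colour scale) for the 32 proteasome genes (rows, coloured by class) in 12 libraries (columns, 2 replicates a group). Psmd1 is darkest red and Psmb6 darkest blue with 30 µM 6-shogaol, and the untreated replicates differ from each other, with replicate 2 lower than replicate 1 in 30 of the 32 genes.

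The 2 compounds were compared directly at each matched dose. At 10 µM, 0 of 32 genes differed with edgeR and 0 with limma-voom (0.638% of all genes were called, 0.0787% higher and 0.559% lower). DESeq2 called 2 (Psmb6 and Psmd8), and 8 had an unadjusted p under 0.05 with edgeR, where 14.6% of all genes did. The difference of 6-shogaol from 6-gingerol in Psmb6 was -0.45 (95% interval -0.70 to -0.19, adjusted p = 0.13), and the highest upper bound was 0.63, for Psmd3.

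At 30 µM, 12 of 32 genes were higher with 6-shogaol than with 6-gingerol (37.5%, where 12.5% of all genes were higher) and 1 was lower (3.12%, where 12.4% were lower and 25% differed in either direction). Psmd1 differed by 1.20 (SE 0.09, adjusted p = 3.9e-07), Psmb2 by 0.77 (SE 0.14, adjusted p = 0.0010), Psmd2 by 0.61 (SE 0.12, adjusted p = 0.0014) and Psmd12 by 0.57 (SE 0.11, adjusted p = 0.0012). Psmb6 was lower by -0.69 (SE 0.12, adjusted p = 0.00070). The other genes that were higher were Psma1, Psma2, Psma5, Psmd3, Psmd5, Psmd7, Psmd11 and Psmd14, with differences of 0.32 to 0.59. This comparison shares the 30 µM 6-shogaol libraries with that against LPS, so the 2 are not independent. Replicate 1 of 30 µM 6-gingerol was below replicate 2 in 22 of the 32 genes. Fewer genes were called without that library, and also without replicate 2 of 30 µM 6-shogaol. What share of all genes was called in those fits is not given here. For the 19 genes not called at 30 µM the intervals lay between -0.51 (Psmd8) and 0.60 (Psmc6).

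Between 10 and 30 µM, 6-shogaol raised 10 of the 32 genes (9.85% of all genes were higher) and lowered Psmb6 (9.54% of all genes were lower). Psmd1 rose by 1.02 (SE 0.09, adjusted p = 3.6e-06), Psma5 by 0.68 (SE 0.14, adjusted p = 0.0037) and Psma2 by 0.62 (SE 0.13, adjusted p = 0.0036), while Psmb6 changed by -0.38 (SE 0.12, adjusted p = 0.037). Fewer genes were called without replicate 1 or 2 of 10 µM 6-shogaol, and without replicate 2 of 30 µM 6-shogaol. What share of all genes was called in those fits is not given here. The same dose step of 6-gingerol gave 0 calls with edgeR, DESeq2 and limma-voom (0.00787% of all genes were called). It gave 0 of the 32 genes at an unadjusted p under 0.05, where 3.42% of all genes were. The difference between the dose steps of the compounds, tested as an interaction, passed for 7 genes, all with the larger step for 6-shogaol (4.27% of all genes were higher, 3.9% lower and 8.17% either): Psmd1, Psma5, Psma2, Psmb2, Psmd14, Psmd12 and Psmd7. Of these only Psmd1, with a difference of 1.09 (SE 0.13, adjusted p = 0.00017), was called in all 19 alternative settings; it alone was called without replicate 1 of either 6-gingerol dose, without either 10 µM 6-shogaol library or without replicate 2 of 30 µM 6-shogaol.

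LPS alone raised 2 of the 32 genes against untreated cells and lowered none (6.25% higher, where 7.66% of all genes were higher and 4.16% lower). These were the lid genes Psmd8, by 0.38 (SE 0.11, adjusted p = 0.037), and Psmd11, by 0.35 (SE 0.10, adjusted p = 0.039). Psmd11, which ties the lid to the core, was at 79.2 and 74.2, 105 and 91.1, 105 and 93.1, 95.8 and 87.5, 93.5 and 97.6, and 119.6 and 109.9 CPM; its untreated libraries were below all others. Both calls rested on single libraries: each was lost without untreated replicate 2, without LPS replicate 1 or without LPS replicate 2. The median was -0.03 over the 32 genes and -0.03 over all genes. With DESeq2 and limma-voom, Psmd5 was called higher as well (edgeR 0.34, adjusted p = 0.052).

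The untreated replicates differed from each other in these genes. Replicate 2 was below replicate 1 in 30 of the 32, with a median log2 ratio of -0.30, while the median over all genes was 0.01. Mean fragment length, estimated from the deposited lengths, was 227 bases in replicate 1 and 248 bases in replicate 2. Their part in the comparisons with untreated cells was not tested beyond leaving out each library and adding fragment length to the model. With fragment length as a covariate, 2 genes were called for LPS against untreated cells and 13 for 30 µM 6-shogaol against LPS, 11 of them higher. The shares of all genes called with this covariate are not given here.

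Set against untreated cells, the group with LPS and 30 µM 6-shogaol had 8 of 32 genes higher and 3 lower (13.3% of all genes were higher, 12.1% lower and 25.4% either). Psmd1 was higher by 1.13 (SE 0.09, adjusted p = 6.0e-07), Psmd5 by 0.71 (SE 0.11, adjusted p = 0.00023), Psmb2 by 0.61 (SE 0.14, adjusted p = 0.0052) and Psmd11 by 0.58 (SE 0.10, adjusted p = 0.00090). Psmb6 was lower by -0.65 (SE 0.12, adjusted p = 0.0011), and so were the ATPases Psmc4 (-0.41) and Psmc3 (-0.35). Psmd8 did not pass the test, with a difference of 0.04 (95% interval -0.20 to 0.27). Fewer genes were called without replicate 2 of 30 µM 6-shogaol, and the share of all genes called in that fit is not given here.

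The immune subunits that replace the active ones did not move as a group either. With 30 µM 6-shogaol, Psmb10 fell by 0.77 in log2 against LPS (SE 0.14, adjusted p = 0.00075), from 20.7 and 18.9 CPM to 12.7 and 10.5 CPM. Psmb8 gave 0.33 (adjusted p = 0.070) and Psmb9 0.41 (adjusted p = 0.081). The share of the immune subunit in the summed TPM of each pair of transcripts was computed per library as a description. Psmb9 made up 0.7% and 0.9% of its pair with Psmb6 in the LPS libraries and 2.1% and 1.8% with 30 µM 6-shogaol. Psmb8 made up 17.3% and 18.8% of its pair with Psmb5 in the LPS libraries and 23.4% and 23.8% with 30 µM 6-shogaol. Psmb10 made up 4.5% and 4.5% of its pair with Psmb7, and then 3.4% and 2.6%. The standard subunit remained the more abundant transcript of each pair in all 12 libraries.

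Genes that assemble or assist the proteasome were also mixed with 30 µM 6-shogaol. Of 7 assembly chaperones, Pomp, which completes the core, rose (0.48, SE 0.13, adjusted p = 0.011), and Psmg1 (-0.51) and Psmd10 (-0.70), chaperones of the alpha ring and of the base, fell. Psmd10 was at 127 and 87.7 CPM in untreated cells, 190 and 187 under LPS alone, and 110 and 121 with 30 µM 6-shogaol. Psmg1, at 49.5 and 42.6, 43.3 and 41.6, and 31.6 and 28.3 CPM in those groups, went below the untreated libraries. Both other cap subunits listed, Adrm1 (-0.26, adjusted p = 0.078) and Sem1 (-0.18, adjusted p = 0.35), missed the test. Among 6 genes for other caps and the inhibitor, Psme3 (0.60), Psme4 (0.34) and Psme1 (0.28) rose. Of 15 bound enzymes and shuttle factors 6 rose and 3 fell, with the smallest p for Zfand2a (-1.03), Ubqln2 (0.66), Zfand5 (-0.48) and Usp14 (0.44), the last a ubiquitin-cutting enzyme that docks on Psmd2. Among 6 ubiquitin and E1 genes, the activating enzyme Uba1 rose (0.54) and the ubiquitin gene Ubb fell (-0.41).

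Genes of the factors upstream of the subunits were mixed, with more lower than higher. Nfe2l1, which encodes NRF1, was at 320.0 and 362 CPM in untreated cells, 396 and 386 under LPS alone, 374 and 376 after adding 6-gingerol at 10 µM, 392 and 380.5 at 30 µM of it, 331 and 371 after adding 6-shogaol at 10 µM, and 251 and 246 at 30 µM of it. It was lowest in both 30 µM 6-shogaol libraries, which did not overlap any other group, and the change from LPS was -0.65 in log2 (SE 0.10, adjusted p = 0.00028). Nfe2l2, which encodes the related factor NRF2, gave -0.25 (SE 0.12, adjusted p = 0.14). Of the 11 tested genes for these factors, their partners and the proteins that activate NRF1, 2 rose and 5 fell. Among them the small MAF genes Maff (-1.25) and Mafk (-0.60) fell and the segregase Vcp (0.51) rose. Maff was at 7.5 and 9.9 CPM in untreated cells, 27.5 and 27.9 under LPS alone, and 12.8 and 10.6 with 30 µM 6-shogaol. Mafk, at 16.6 and 22.3, 18.5 and 24.0, and 13.6 and 14.5 CPM in those groups, went below the untreated libraries. These are mRNA levels; NRF1 is known to be controlled mainly as a protein.

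Known NRF2 targets and chaperone genes are given for comparison. Of 12 NRF2 targets 9 rose and 0 fell with 30 µM 6-shogaol, with a median of 0.47; the glutathione synthesis gene Gclm went from 60.8 and 63.9 CPM with LPS to 139.9 and 136 CPM. Of 10 tested genes of the proteotoxic stress response 5 rose and 1 fell, led by the chaperone Hspa8, from 695 and 701 CPM to 2408 and 2460.4 CPM (1.80, SE 0.11, adjusted p = 5.5e-08), and Hsph1 (1.05). The ubiquitin receptor Sqstm1, also known as an NRF2 target, fell by 0.96 (SE 0.11, adjusted p = 1.5e-05). With 10 µM 6-shogaol the medians of these lists were 0.12 and 0.05.

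**Figure D4:**
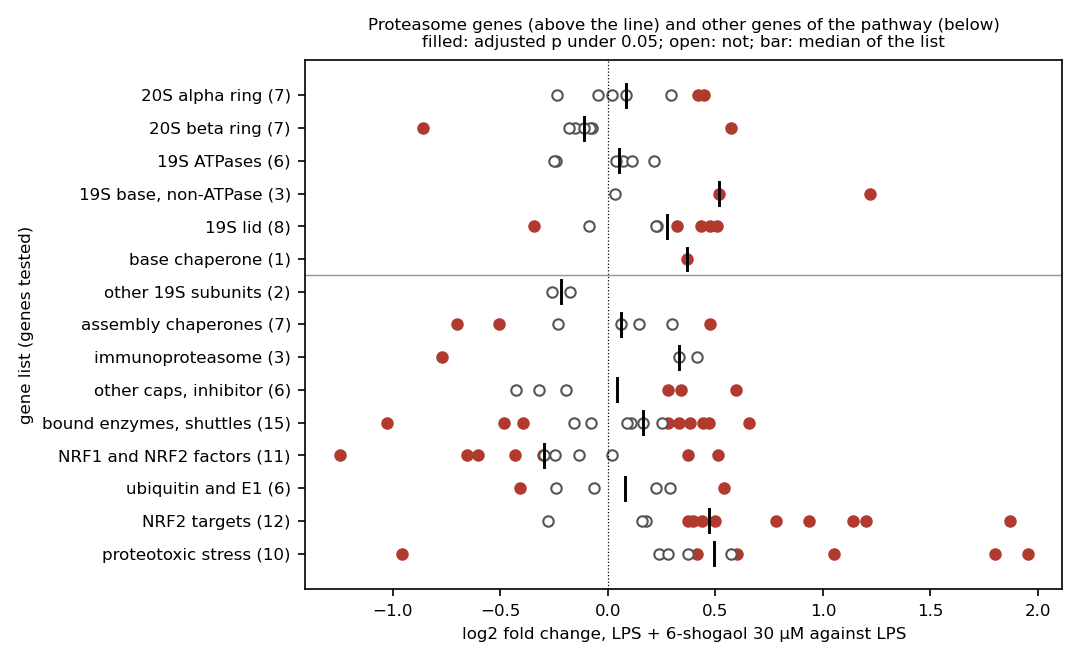
Log2 fold change for 30 µM 6-shogaol with LPS against LPS (x axis) of the proteasome genes by class (above the line) and of other genes of the pathway by list (below; number of genes tested in brackets). Filled points passed the adjusted p of 0.05 and the bar is the median, which is 0.51 for the base genes that are not ATPases, -0.11 for the beta ring, -0.30 for the NRF1 and NRF2 factors and 0.47 for the NRF2 targets.

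Some counts could include reads of neighbours. By GENCODE M21, 15 of the 32 genes overlap another annotated gene, 12 of them on the opposite strand, and the strand setting of the counting is not given in the sources used here. Psmd1 (ENSMUSG00000026229, chr1:86064387-86139151, plus strand) overlaps Gm21972, which had a mean of 6.4 counts against 2227 for Psmd1, and Htr2b on the opposite strand, with 1.0. Psmb7 overlaps Nek6 on the opposite strand, which had a mean of 1983 counts against 6111. Psmb6 (ENSMUSG00000018286, chr11:70525367-70527858, plus strand) had whole counts in all 12 libraries, as did 24 of the 32 genes; in the other 8, Psmd1 included, at least 1 library had a count that was not whole, as RSEM gives where it divides reads between genes.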

How the data were processed

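RNA of 12 BV2 libraries was prepared with a stranded kit and sequenced in paired-end mode, per the labels' protocols. Per the file headers, the deposited tables are RSEM gene tables with an expected count (7.03% of values not whole), TPM and gene lengths in bases; the lengths gave the mean fragment length. The authors also deposited a table of normalized signal by gene, whose scaling is not given in the sources used here. The submitters' processing notes name Trimmomatic 0.39, STAR 2.7.11b, RSEM 1.3.3 and GRCm38.

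Expected counts were rounded, filtered with filterByExpr (12705 genes kept), scaled by TMM and fitted in edgeR 4.0.16 (R 4.3.3) with 6 group means and 6 residual degrees of freedom. For 11 contrasts the quasi-likelihood F test was run 2-sided. It was also run on simulated counts drawn independently for each gene. Such counts hold no shifts shared within a library, so they cannot show how the test handles those. Symbols and positions are from GENCODE M21. Alternatives used DESeq2 1.42.0, limma 3.58.1 (voom, and limma-trend on log2 of the authors' signal or TPM plus 1), other scalings, filters and subsets, a replicate block and each library left out.

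The genes and lists were chosen with earlier results of these data known. Genes were given in full by a rule: per class those with the highest and the lowest fold change for 30 µM 6-shogaol against LPS, the active subunits, and those called where 5 or fewer were. Other lists give counts and up to 4 genes with the smallest p.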

Additional observations from a re-analysis of the deposited data

Results flagged for a closer look

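For 7 proteasome genes the step from 10 to 30 µM differed between 6-shogaol and 6-gingerol in edgeR's interaction test, with the larger step for 6-shogaol in each. The difference of the steps on the log2 scale was 1.09 for Psmd1 (adjusted p = 0.00017), 0.82 for Psma5 (adjusted p = 0.022), 0.78 for Psma2 (adjusted p = 0.018), 0.74 for Psmb2 (adjusted p = 0.034), 0.73 for Psmd14 (adjusted p = 0.027), 0.57 for Psmd12 (adjusted p = 0.031) and 0.49 for Psmd7 (adjusted p = 0.0497). Psmd1 was called in all 19 alternative settings, Psma2 and Psma5 in 14, Psmb2 and Psmd14 in 11, Psmd12 in 9 and Psmd7 in 6. The 6-gingerol step itself was negative in 31 of the 32 genes, with 0 calls by edgeR. It had 0 of these genes at an unadjusted p under 0.05, where 3.42% of all genes were.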

How the results depend on the processing

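Over all alternatives, 131 counts of called genes equalled the reported count or stayed within 1.5 times it, and 36 did not. The 0 calls of 6-gingerol against LPS and between its doses held in every alternative run. These and other counts of 0 that stayed 0 are among the 131. They say little on stability, since for 6-gingerol at most 0.00787% of all genes were called in the reported fit. For LPS against untreated cells (2 as reported), library totals gave 0, the compared groups alone 0, TPM 0 and the authors' normalized values 1. For 10 µM 6-shogaol against LPS (0), no low-count filter gave 2, DESeq2 1, the compared groups alone 6 and a fit without the untreated libraries 1, all lower. Against 10 µM 6-gingerol (0), no filter gave 1, DESeq2 2 and leaving out the untreated libraries 1. For 30 against 10 µM 6-shogaol (11), the compared groups alone gave 18. For the difference of the dose steps (7), library totals gave 4, no filter 11, no untreated libraries 13, the authors' values 4 and TPM 3. For 30 µM 6-shogaol against untreated cells (11), the compared groups alone gave 6. The shares of all genes called in these alternatives are not given here, and the cause of these shifts was not tested.

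Leaving out 1 library at a time gave 0 to 2 calls for LPS against untreated cells, 4 to 7 for 30 µM 6-shogaol against LPS, 6 to 11 against 30 µM 6-gingerol, 2 to 8 against 10 µM, 7 to 14 against untreated cells and 1 to 6 for the difference of the dose steps; these fits also have fewer residual degrees of freedom, and a lone library was assumed to vary like the other groups. For these fits, too, the shares of all genes called are not given here. Among the 14 genes whose fold change against LPS was recomputed for 30 µM 6-shogaol, 1 sign turned, that of Psmd4: -0.005 without 30 µM 6-shogaol replicate 1, in a range up to 0.076. Library totals moved the median of all genes by -0.15 and TPM by -0.14 for the difference of the dose steps. TPM was added after seeing the data.

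Replicate numbers were not treated as pairs: deviations of same-numbered libraries correlated at -0.61 to 0.41 (median 0.06) over 15 pairs of groups. With a replicate block 12 genes were called for 30 µM 6-shogaol against LPS, 13 against 30 µM 6-gingerol, 10 against 10 µM and 12 against untreated cells, and the other counts equalled those without it. What share of all genes was called with the block is not given here. The genes were not all the same: the block lost Psma1 between the 6-shogaol doses and Psmd7 for the difference of the dose steps, where 6 of the 7 calls were shared with the fit without it.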
